A study of Mus musculus with 24 samples.

Results

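The genes described here are 10 genes of mitochondrial fatty acid oxidation in mouse liver: Cpt1a, Cpt2 and Crat of the carnitine shuttle, Acadm, Acadl and Acadvl among the acyl-CoA dehydrogenases, Hadh, Hadha and Hadhb of the later steps of the cycle, and Pdk4, a kinase that closes the rival route of carbohydrate entry. They were taken as all 19 probes annotated with 1 of these symbols on an Illumina bead array of 45281 probes, and 16 of the 19 probes, covering all 10 genes, passed the filter on dim probes that left 20216 probes and 11115 genes in all. Hepatic RNA came from male C57BL/6J mice of 16 weeks, 24 samples in 4 groups of 6, after 10 weeks of feeding. The control group had the normal diet and plain water, the high-sugar group the normal diet and a drink of 23% (w/v) sugar, the high-fat group the high-fat diet and plain water, and the high-fat high-sugar group the high-fat diet and the sugar drink. The labels give no genetic modification, do not say which sugar or fat was fed, and do not state whether samples came from separate mice; the p-values therefore cover sample-to-sample spread, which may be technical.

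Long-chain fatty acids cannot cross the inner mitochondrial membrane as CoA esters. CPT1A, on the outer membrane, transfers the acyl group to carnitine, and CPT2, on the inner membrane, returns it to CoA, while carnitine acetyltransferase (Crat) interconverts short acyl-CoA and acylcarnitine. Each round of beta-oxidation then starts with an acyl-CoA dehydrogenase of matching chain length (Acadvl very long, Acadl long, Acadm medium). It goes on through hydration, a further oxidation and thiolysis, carried out for long chains by the trifunctional protein (alpha subunit Hadha, beta subunit Hadhb) and for shorter chains in part by the hydroxyacyl-CoA dehydrogenase Hadh. In liver the pathway feeds ketone body synthesis and gluconeogenesis in fasting, many of its genes are targets of the nuclear receptor PPAR alpha, and malonyl-CoA, the first product of fatty acid synthesis, inhibits CPT1A.

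The promoters of 9 of the 10 genes (all but Crat) were found in RefSeq's table for build GRCm38.p6, as windows from 250 bases before to 50 bases after a start site. Those holding a nuclear receptor half-site are shown, with that of Hadhb, which overlaps the promoter of Hadha; the capitals mark AGGTCA, the half-site read by many nuclear receptors, or its reverse complement TGACCT.
Cpt1a promoter, chr19:3323051-3323350, plus strand: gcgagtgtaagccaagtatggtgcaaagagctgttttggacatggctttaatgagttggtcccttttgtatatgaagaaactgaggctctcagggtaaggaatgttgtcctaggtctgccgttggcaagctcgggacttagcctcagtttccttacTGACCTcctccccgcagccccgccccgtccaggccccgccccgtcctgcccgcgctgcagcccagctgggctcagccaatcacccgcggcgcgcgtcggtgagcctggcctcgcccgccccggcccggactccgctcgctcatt
Acadm promoter, chr3:153944594-153944893, minus strand: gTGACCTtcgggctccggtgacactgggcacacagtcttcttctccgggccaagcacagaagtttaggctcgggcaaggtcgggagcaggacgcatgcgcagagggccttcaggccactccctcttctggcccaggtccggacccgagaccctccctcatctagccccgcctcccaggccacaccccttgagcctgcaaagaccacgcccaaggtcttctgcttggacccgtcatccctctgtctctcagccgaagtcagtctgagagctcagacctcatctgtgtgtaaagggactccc
Acadvl promoter, chr11:70015379-70015678, minus strand: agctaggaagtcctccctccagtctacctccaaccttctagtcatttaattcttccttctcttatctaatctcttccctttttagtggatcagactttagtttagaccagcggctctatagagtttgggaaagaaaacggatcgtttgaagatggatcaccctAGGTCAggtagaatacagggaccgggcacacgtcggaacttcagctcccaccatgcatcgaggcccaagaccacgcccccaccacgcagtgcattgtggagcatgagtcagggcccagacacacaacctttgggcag
Hadhb promoter, chr5:30155003-30155302, plus strand: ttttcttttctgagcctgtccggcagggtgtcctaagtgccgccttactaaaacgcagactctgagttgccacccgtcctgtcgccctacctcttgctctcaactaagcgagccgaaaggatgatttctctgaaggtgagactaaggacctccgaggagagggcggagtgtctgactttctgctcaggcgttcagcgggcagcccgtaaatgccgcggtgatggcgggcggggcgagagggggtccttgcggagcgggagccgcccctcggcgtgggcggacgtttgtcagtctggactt
The half-site lay 94 to 89 bases before the start site used for Cpt1a and 249 to 244 bases before that of Acadm, both on the opposite strand, and 87 to 82 bases before that of Acadvl on the gene's own strand. The Cpt1a window, with its start site, lies inside the span given below for that gene, not before it. These 3 of 9 windows held the half-site, as did 16.3% of all 32851 promoters of the table, so a match is frequent by itself. A direct repeat of AGGTCA with 1 base between its copies, the form read by PPAR alpha with its partner RXR, was in 0 of the 9 windows and in 0.0396% of all. TCAAGGTCA, read by the estrogen-related receptors, was in 0 of 9 and in 0.423% of all. GTAAACA, read by FOXO factors, was in 0 of 9 and in 3.65% of all. CACGTG, the E-box, was in 0 of 9 and in 7.15% of all. All motifs were sought on both strands, and AGGTCA is contained in the direct repeat and in TCAAGGTCA. Hadha and Hadhb lie head to head on chromosome 5 with starts 273 bases apart, so that their windows share 228 bases, and the window printed for Hadhb holds much of that of Hadha.

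Before the values, 1 library has to be set apart. In replicate 4 of the high-fat high-sugar group, 8 skeletal muscle genes summed to an intensity of 14169, with Acta1 (skeletal actin) at 6157, Tnnc2 (troponin C) at 4124 and Ckm (muscle creatine kinase) at 810, while the myosin heavy chain genes Myh1 and Myh4 lay below the noise limit. Replicate 4 of the high-fat group followed with a sum of 137, and the other 22 samples lay between -4.09 and 37.5. Beside each call of a named gene below that ended when both samples numbered 4 were left out, the value without them is given. Without them the same number of the 10 genes was called for sugar on either diet and for fat with water. For fat with sugar and for the interaction 0 of the 10 were then called, and for both treatments against control 3. The liver label held against its markers: 9 of 10 hepatocyte genes passed the filter, and their summed intensity ran from 64278 to 83612 over the 24 samples. Correlations between samples of a group ran from 0.986 to 0.995 and those between groups from 0.973 to 0.992, over log2 values of the kept probes. In a tissue homogenate, fewer cells of a type and less RNA per cell cannot be told apart.

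Intensities are normalised bead intensities on a linear scale, on which values under about 6.5 (the noise limit, the 0.95 quantile of an array's noise) cannot be told from background. Differences are on the scale log2(intensity + 32) with the standard error of a limma fit over all 4 groups, a gene is read by its kept probe with the highest mean (the leading probe), and a change is called at a Benjamini-Hochberg adjusted p of 0.05 or less over the 20216 probes. Adding 32 shrinks the differences of dim probes. Gene coordinates are RefSeq's for GRCm38.p6. Levels of different probes are not compared with each other, since brightness also depends on the probe.

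The 10 genes did not move as a block. Sugar on the normal diet raised 4 and lowered 1, where 28.6% of all genes were called (14.7% higher, 13.9% lower). Among the 4 is Hadh, whose probe passed the filter only with the high-sugar samples counted. Sugar on the high-fat diet raised 2 and lowered 4, beside 30.3% of all genes (16.4% higher, 13.8% lower). The 4 lowered include Acadl, whose second kept probe was called higher in the same comparison. Fat with water raised 4 and lowered 0, beside 17.1% of all genes (8.58% higher, 8.51% lower). Fat with sugar raised 1 (0 without both samples numbered 4) and lowered 0, beside 7.59% of all genes (4.17% higher, 3.42% lower). The median difference of the 10 genes was 0.12, 0.02, 0.25 and 0.03 in these comparisons, beside -0.01, -0.01, 0.00 and 0.01 over all 11115 genes. Over the 16 probes, sugar on the normal diet raised 7 (again with that of Hadh) and lowered 1, where 28% of all kept probes were called (14.2% higher, 13.8% lower). Sugar on the high-fat diet raised 5 and lowered 7 (29.6% of all, 14.9% higher, 14.7% lower). Fat with water raised 6 and lowered 0 (15.6% of all, 7.87% higher, 7.74% lower). Fat with sugar raised 1 and lowered 0 (7.05% of all, 3.32% higher, 3.73% lower). Rises with sugar on either diet, falls with sugar on the high-fat diet and rises under fat with water were thus more frequent among the 16 probes than over all probes. Probes of 1 gene are not independent, and the 10 genes were chosen with earlier results of these data known. The sugar comparisons share no samples with each other, nor do the fat comparisons, but each sugar comparison shares a group with each fat comparison.

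**Figure D1:**
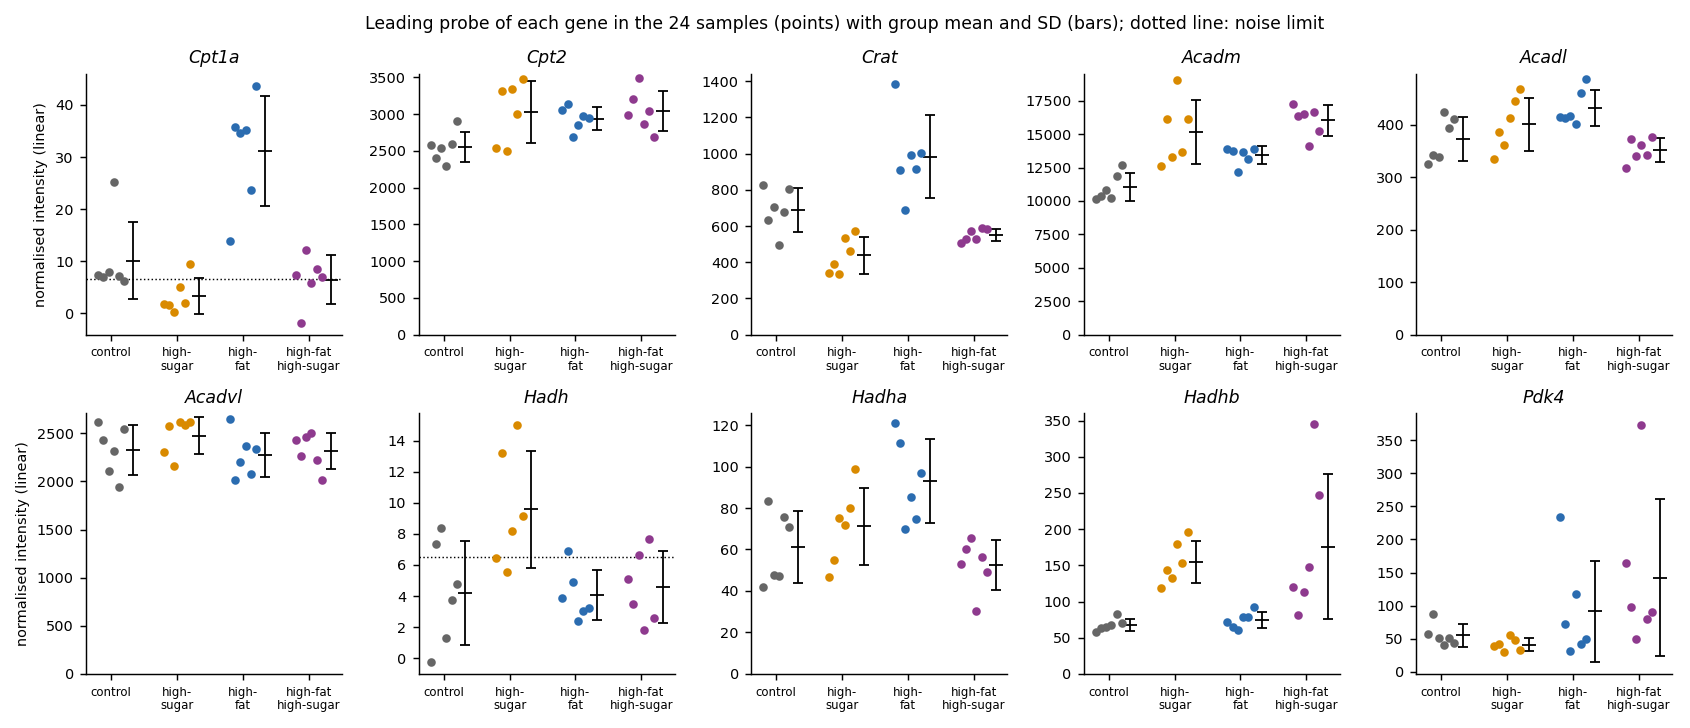
Normalised intensity (linear scale) of the leading probe of each of the 10 genes, 6 samples per group as points, with the group mean and SD as bars and the noise limit as a dotted line for Cpt1a and Hadh. Cpt1a, Crat and Hadha are highest on average in the high-fat group, Hadhb and Acadm are higher in both groups given the sugar drink than in their water groups, and the Pdk4 bar of the high-fat high-sugar group is stretched by a sample at 373.

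Cpt1a (chr19:3322326-3385735) gates the entry of long chains. Its leading probe read 6.20, 7.24 and 25.2 in controls (lowest, median, highest), 0.237, 1.84 and 9.46 in high-sugar samples, 13.95, 34.9 and 43.7 in high-fat samples and -1.80, 7.14 and 12.2 in high-fat high-sugar samples. It was above the noise limit in 5, 1, 6 and 4 of 6 samples of these groups, so that only the high-fat group was measured throughout. Cpt1a rose with the high-fat diet and water (0.58 ± 0.11, limma adjusted p = 0.00047), with overlap through control replicate 4 at 25.2. On the high-fat diet it fell with the sugar drink (-0.71 ± 0.11, adjusted p = 1.58e-05), and the 6 samples with sugar all lay under the 6 with water. The size of these Cpt1a differences depends on the offset, since the sugar group averaged 6.48, at the noise limit: with 16 or 64 added in place of 32 the fall was -1.07 or -0.43, and the rise with fat and water was 0.36 with 64 added. Both stayed called. The sugar drink on the normal diet gave -0.24 ± 0.11 (adjusted p = 0.0943) and the high-fat diet with the sugar drink 0.12 ± 0.11 (adjusted p = 0.614). This probe is annotated with a cDNA clone. The probe annotated with the RefSeq transcript was above noise in 1 of 24 samples and was not kept, so the Cpt1a values rest on a dim probe of the clone.

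Cpt2 (chr4:107903982-107923589), which completes the shuttle inside the membrane, had 3 kept probes. The leading probe read 2289, 2562 and 2901 in controls, 2495, 3158 and 3473 in high-sugar, 2687, 2953 and 3134 in high-fat and 2694, 3010 and 3484 in high-fat high-sugar samples, with overlap between all groups. Under normal feeding it rose with sugar by 0.24 ± 0.08 (adjusted p = 0.0339), a call that ended in 7 of 24 fits with 1 sample left out (control replicates 2, 3 and 4, high-sugar replicates 2, 4, 5 and 6; 0.19 to 0.24, adjusted p up to 0.094), and gave 0.05 ± 0.08 on the high-fat diet (adjusted p = 0.711). The other probes gave larger differences. The second read 860, 887 and 1046 in controls and 1377, 1628 and 2029 in high-sugar samples, which do not overlap. On it Cpt2 rose by 0.83 ± 0.12 on the normal diet (adjusted p = 7.69e-06) and by 0.63 ± 0.12 on the high-fat diet (adjusted p = 0.000186). The third gave 0.96 ± 0.12 and 0.65 ± 0.12. The mean over the 3 Cpt2 probes rose by 0.68 on the normal diet (adjusted p = 8.09e-06) and by 0.44 on the high-fat diet (adjusted p = 0.000741). No probe of Cpt2 passed for the high-fat diet with either drink, where differences ran from -0.09 to 0.22.

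Crat (chr2:30400476-30416017), the short-chain carnitine acyltransferase, had its lowest levels with sugar and its highest with fat and water. The leading probe read 497, 689 and 826 in controls, 333, 426 and 574 in high-sugar, 686, 954 and 1387 in high-fat and 506, 550 and 588 in high-fat high-sugar samples. Crat fell with sugar on the normal diet (-0.63 ± 0.14, adjusted p = 0.00102) and on the high-fat diet (-0.77 ± 0.14, adjusted p = 9.24e-05), in the latter without overlap. It rose with the high-fat diet and water by 0.48 ± 0.14 (adjusted p = 0.0161, and 0.38 with adjusted p = 0.0501 without high-fat replicate 1, which was highest at 1387). On the high-fat diet all 3 probes fell with sugar, by -0.77, -0.81 and -0.53, and all 3 rose with the high-fat diet and water, by 0.48, 1.00 and 0.58. On the normal diet the other 2 probes did not pass with sugar, at -0.04 ± 0.14 and -0.16 ± 0.10 against -0.63 ± 0.14 on the leading probe, and the mean over the 3 gave -0.28 (adjusted p = 0.0524). With a floor of 16 and no offset the third Crat probe gave -0.96 and 1.08 in place of -0.53 and 0.58.

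Acadm (chr3:153922353-153944643), the medium-chain dehydrogenase, was read by 1 bright probe and rose in both sugar comparisons. It read 10113, 10594 and 12722 in controls, 12652, 14901 and 19043 in high-sugar, 12166, 13709 and 13884 in high-fat and 14075, 16432 and 17261 in high-fat high-sugar samples. The lowest high-fat high-sugar sample lay above the highest high-fat sample. Differences were 0.45 ± 0.08 for sugar on the normal diet (adjusted p = 0.000172), 0.25 ± 0.08 for sugar on the high-fat diet (adjusted p = 0.0209, but 0.23 with adjusted p = 0.0519 without high-fat replicate 3) and 0.29 ± 0.08 for the high-fat diet with water (adjusted p = 0.0168). The high-fat diet with the sugar drink gave 0.09 ± 0.08 (adjusted p = 0.609). With both treatments against control Acadm was 1.46-fold higher (0.54 ± 0.08, adjusted p = 1.37e-05), and the groups did not overlap.

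Acadl (chr1:66830839-66863309), the long-chain dehydrogenase, gave opposite answers on its 2 kept probes with sugar on the high-fat diet. Of 778 pairs of probes of 1 gene both called in that comparison over the array, 130 were opposite. The leading Acadl probe read 401, 415 and 488 in high-fat samples and 317, 352 and 375 in high-fat high-sugar samples, without overlap. It fell with sugar by -0.27 ± 0.08 (adjusted p = 0.0136). The second probe read 82.3, 103 and 135 in the same high-fat samples and 123, 139 and 156 with sugar, and rose by 0.31 ± 0.10 (adjusted p = 0.0164, and 0.25 with adjusted p = 0.0525 without high-fat replicate 3). On the normal diet the second probe rose with sugar by 0.54 ± 0.10 (adjusted p = 0.000112, no overlap) while the leading probe gave 0.10 ± 0.08 (adjusted p = 0.418). The mean over both Acadl probes rose with sugar on the normal diet (0.32, adjusted p = 0.000482) and gave 0.017 on the high-fat diet (adjusted p = 0.867), where no direction can be given for the transcript as a whole. For fat with water the Acadl probes gave 0.20 ± 0.08 and 0.23 ± 0.10, each short of the threshold, while their mean passed (0.22, adjusted p = 0.0186), as did the second probe without control replicate 2 (adjusted p = 0.046) or high-fat replicate 3 (adjusted p = 0.0462). The third Acadl probe was above noise in 1 of 24 samples and was not kept.

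Acadvl (chr11:70010183-70015428), the very-long-chain dehydrogenase, had the flattest leading probe, at group medians of 2374, 2581, 2270 and 2351 in control, high-sugar, high-fat and high-fat high-sugar samples, with overlap between all groups. Its differences ran from -0.09 to 0.09 with a standard error of 0.08 in the 4 comparisons and did not pass in any. The second Acadvl probe fell with sugar on the high-fat diet, from 1686, 1952 and 2328 to 1438, 1566 and 1798 (-0.29 ± 0.08, adjusted p = 0.00681). Its other differences did not pass. The nearest was that for fat with sugar (-0.24 ± 0.08, adjusted p = 0.071). It passed with array weights (-0.25, adjusted p = 0.0356) and without high-fat high-sugar replicate 5 (-0.27, adjusted p = 0.0458).

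Hadhb (chr5:30155253-30184593), the thiolase subunit of the trifunctional protein, had the largest rise with sugar among the leading probes on both diets. It read 57.5, 65.8 and 82.7 in controls and 119, 148 and 197 in high-sugar samples, without overlap, a difference of 0.89 ± 0.18 (1.86-fold on intensity plus 32, adjusted p = 0.000521). On the high-fat diet it read 60.3, 75.4 and 92.0 with water and 81.0, 134 and 345 with sugar (0.85 ± 0.18, adjusted p = 0.000813), with overlap through the lowest sample of the sugar group. Replicates 5 and 6 of the high-fat high-sugar group, at 345 and 248, lay well above its other 4 samples. Leaving out any single sample kept this difference between 0.65 and 1.00. The high-fat diet gave 0.10 ± 0.18 with water and 0.05 ± 0.18 with sugar, neither of which passed.

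Hadha (chr5:30119423-30154980), the alpha subunit of the same complex, had another pattern. It read 42.0, 59.3 and 83.4 in controls, 46.6, 73.5 and 98.7 in high-sugar, 69.7, 91.1 and 121 in high-fat and 30.5, 54.9 and 65.5 in high-fat high-sugar samples. On the high-fat diet it fell with sugar by -0.56 ± 0.13 (adjusted p = 0.00179), without overlap between the groups, while Hadhb rose in the same samples. It rose with the high-fat diet and water by 0.43 ± 0.13 (adjusted p = 0.0254), a call lost without control replicate 1, 3 or 4 or high-fat replicate 1 or 2 (0.37 to 0.39, adjusted p up to 0.0746). Sugar on the normal diet gave 0.15 ± 0.13 (adjusted p = 0.431). The Hadha probe is annotated with a cDNA clone, and both subunits were read by 1 probe each.

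Hadh (chr3:131233419-131272101), the hydroxyacyl-CoA dehydrogenase of shorter chains, was near the limit of detection. Its leading probe passed the limit in 2, 4, 1 and 2 of 6 samples of the control, high-sugar, high-fat and high-fat high-sugar groups, with group means of 4.22, 9.58, 4.06 and 4.56. It rose with sugar on the normal diet by 0.20 ± 0.06 (adjusted p = 0.0218), and the call was lost without control replicate 1 or 4 or high-sugar replicate 2 or 5 (0.16 to 0.18, adjusted p up to 0.0663). The probe passed the filter of 6 arrays only with the high-sugar samples counted. That is the group in which it is called higher, so the call is no support for a rise. With intensities under 16 set to 16 the Hadh difference was 0, and with 16 or 64 added in place of 32 it was 0.34 or 0.11. The second probe, not kept, averaged 11.0 in the high-sugar group, where 5 of 6 samples passed the limit, and was above it in 0 of 18 samples of the other groups.

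**Figure D2:**
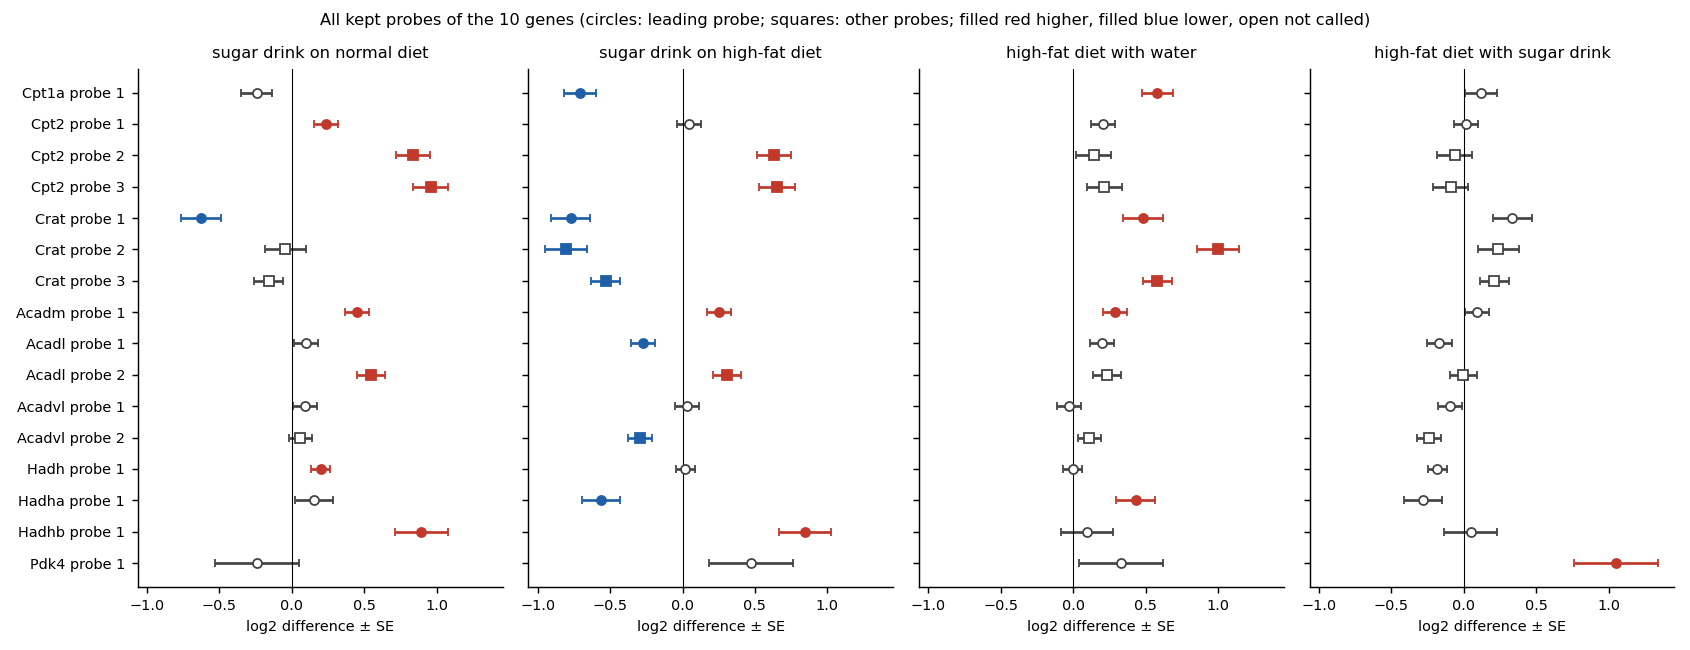
Log2 differences with standard errors for the 16 kept probes in 4 comparisons, 1 panel each, circles for leading and squares for other probes. Filled red points rose, filled blue points fell and open points did not pass at an adjusted p of 0.05; on the high-fat diet the Acadl probes lie on opposite sides of 0, as do Hadha and Hadhb.

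Pdk4 (chr6:5483351-5496278) phosphorylates and inactivates the pyruvate dehydrogenase complex, and is itself a PPAR alpha target. It read 40.6, 50.7 and 87.1 in controls, 29.4, 40.1 and 56.1 in high-sugar, 31.3, 61.0 and 235 in high-fat and 49.0, 94.2 and 373 in high-fat high-sugar samples. It rose with the high-fat diet and the sugar drink by 1.05 ± 0.29 (adjusted p = 0.024), 2.07-fold and the largest difference among the leading probes. With both treatments against control the difference was 0.81 ± 0.29 (adjusted p = 0.0322). The highest sample, at 373 or 3.87 times the mean of the other 5 of its group, is the library with the skeletal muscle genes. Without it the differences were 0.76 (adjusted p = 0.0709) and 0.52 (adjusted p = 0.113), and without both replicates 4 they were 0.76 (adjusted p = 0.0699) and 0.52 (adjusted p = 0.111), so neither call held. The first call was also lost without high-fat high-sugar replicate 1 (0.97, adjusted p = 0.0683) or high-sugar replicate 3 (1.00, adjusted p = 0.0567), and the second without control replicate 3, 4, 5 or 6 or high-fat high-sugar replicate 1 (0.73 to 0.80, adjusted p up to 0.0703). The part of muscle RNA in the Pdk4 signal was not tested. In the high-fat group the highest Pdk4 value, 235 in replicate 1, came with a muscle sum of 13.96, within the range of the other samples.

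**Figure D3:**
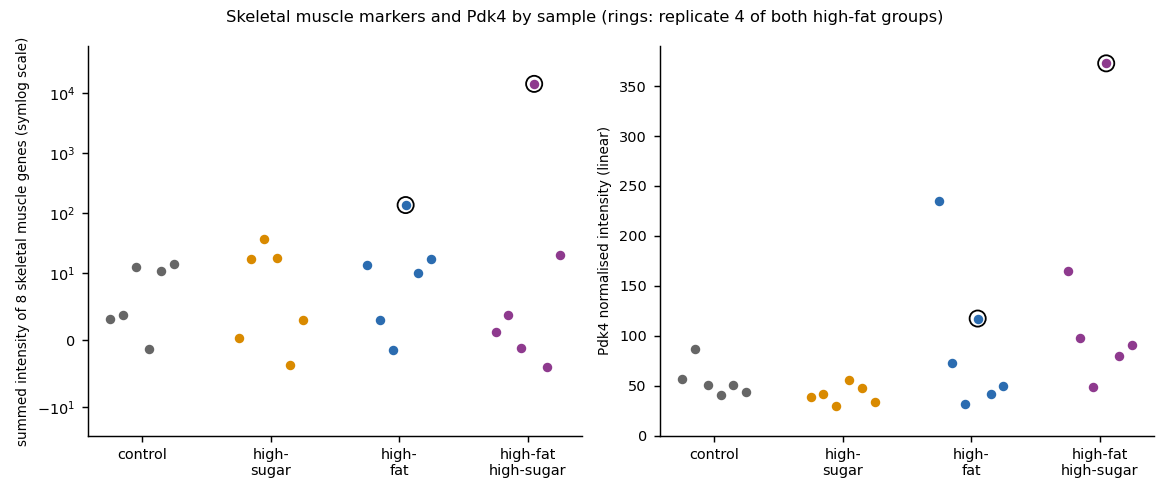
Summed intensity of 8 skeletal muscle genes (left, scale linear near 0 and logarithmic beyond 10) and Pdk4 intensity (right, linear), 1 point per sample. The ringed samples are replicate 4 of the high-fat group, at 137 and 117, and of the high-fat high-sugar group, at 14169 and 373.

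The probes of Cpt2, Acadl and Crat differed from each other in the size of their response to sugar. For the 4 genes with several kept probes, the difference between another probe and the leading probe was taken within each array, which removes what both probes share, and compared between groups by a two-sided exact permutation test, 6 against 6, over 24 tests. The smallest p such a test can give is 0.0021645. This test was added after the probes had been seen to disagree with sugar, so it describes that disagreement and is no independent evidence of it. For sugar on the normal diet 4 of 6 gaps passed after Benjamini-Hochberg adjustment, for sugar on the high-fat diet 3 of 6, and for the fat comparisons 0 of 6 with either drink, where 1 and 0 gaps had an unadjusted p under 0.05. Whether gaps moved more with the drink than with the diet was not tested. The gap of the second Cpt2 probe moved from -1.45 ± 0.10 in controls (SD, n = 6) to -0.85 ± 0.17 in high-sugar samples (exact p = 0.00216, adjusted p = 0.0104), and from -1.51 ± 0.15 to -0.93 ± 0.32 on the high-fat diet (same values of p), without overlap in either case. That of the second Acadl probe moved from -1.74 ± 0.26 to -1.15 ± 0.18 on the high-fat diet (exact p = 0.00216, adjusted p = 0.0104, no overlap). That of the second Crat probe moved from -2.75 ± 0.45 to -2.17 ± 0.13 on the normal diet with the same exact p and gave -0.03 on the high-fat diet (exact p = 0.803, adjusted p = 0.845). Under fat with water this Crat gap moved by 0.52 (exact p = 0.026, adjusted p = 0.0693).

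Such gaps were also seen elsewhere on the array. Over 5795 second or further probes of 4030 genes, the median size of the gap between the differences of a further probe and of the leading probe was 0.17 for sugar on either diet and 0.12 and 0.09 for fat given with water or with sugar. For the 6 further probes of the genes described here it was 0.52 and 0.45 for sugar, and 0.08 and 0.12 for fat. Gaps of dim probes also carry the effect of the offset added before log2. In the sugar comparisons 3 of 6 gaps lay above the 90th percentile of all gaps (0.50 and 0.53), on each diet. Where the further and the leading probe were both called, 119 of 717 pairs were opposite in direction with sugar on the normal diet. With sugar on the high-fat diet 130 of 778 were opposite, but 2 of 459 for fat with water and 3 of 173 for fat with sugar. The 6 genes described here with 1 kept probe have no second probe to compare. Whether the probes read different transcript ends or isoforms was not tested, since no probe positions were used.

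**Figure D4:**
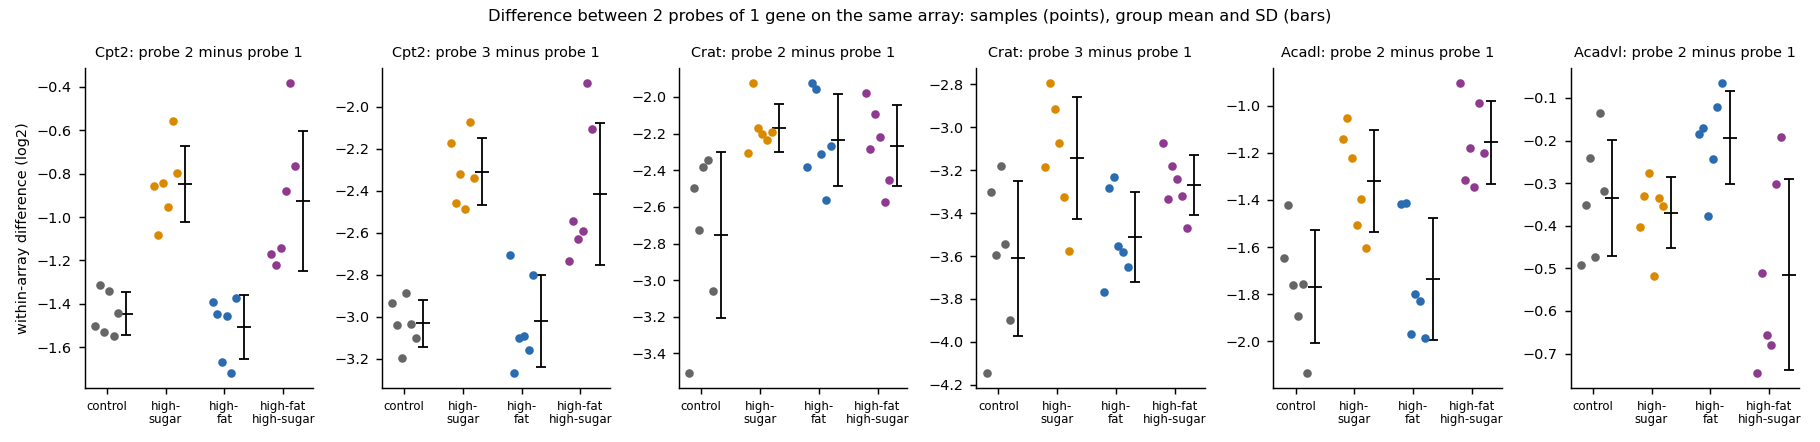
Difference between a further probe and the leading probe of the same gene on the same array (log2), by sample, with group mean and SD, for the 6 further probes of Cpt2, Crat, Acadl and Acadvl. The mean gaps of both Cpt2 probes and of the Acadl probe are closer to 0 in the groups given the sugar drink than in their water groups.

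The interaction, in which the sugar effect under normal feeding is subtracted from that under high-fat feeding, was called for 1 of the 10 genes, Hadha (-0.71 ± 0.19, adjusted p = 0.0388), beside 2.51% of all genes (1.19% higher, 1.32% lower). The mean of Hadha went from 61.1 to 71.3 with sugar on the normal diet and from 93.1 to 52.5 on the high-fat diet. This call was lost in 12 of 24 fits with 1 sample left out (-0.72 to -0.63 in these, adjusted p up to 0.0737), among them that without high-fat high-sugar replicate 4 (-0.63, adjusted p = 0.0711), and without both samples numbered 4 (-0.65, adjusted p = 0.0806). Over the 16 probes 2 were called lower and 0 higher, beside 2.52% of all probes (1.01% higher, 1.5% lower). The second Crat probe was the other (-0.76 ± 0.20, adjusted p = 0.0425, lost in 15 of 24 such fits and, at adjusted p = 0.078, without both samples numbered 4), while the leading Crat probe gave -0.15 ± 0.19 (adjusted p = 0.756). For the other genes the difference between the diets did not pass. Cpt1a gave -0.46 ± 0.15 (adjusted p = 0.101), and passed without control replicate 4, its far sample (-0.55, adjusted p = 0.0246), without high-fat replicate 1 (-0.55, adjusted p = 0.0295) and with array weights (-0.51, adjusted p = 0.0488). Acadl gave -0.37 ± 0.12 (adjusted p = 0.0854), and passed without control replicate 4 (-0.41, adjusted p = 0.0495) or high-sugar replicate 1 (-0.42, adjusted p = 0.0457). With both treatments against control 4 of the 10 genes rose (Cpt2, Acadm, Hadhb and Pdk4, or 3 genes without both samples numbered 4) and 0 fell, beside 35.1% of all genes (18.9% higher, 16.3% lower), and 7 of 16 probes rose and 0 fell, beside 33.4% of all probes (16.7% higher, 16.7% lower). Among these Hadhb gave 0.94 ± 0.18 (adjusted p = 0.000239) and Cpt2 0.25 ± 0.08 on its leading probe, or 0.63 as the mean over its probes (adjusted p = 0.0207 for the leading probe, lost without control replicate 4 or high-fat high-sugar replicate 3 at adjusted p = 0.0512 and 0.0588).

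Among other enzymes of mitochondrial beta-oxidation, Acadsb and Gcdh rose with sugar on both diets. Of 19 measured members of this list 6 rose and 1 fell with sugar on the normal diet, where 14.7% of all genes rose and 13.9% fell, and 6 rose and 1 fell on the high-fat diet (16.4% and 13.8% of all). The medians were 0.21 and 0.10. Without both samples numbered 4 these counts were 5 and 1, and 5 and 0. On the normal diet Acadsb, the dehydrogenase of short branched chains, rose by 0.63 ± 0.08 (from a mean of 5.53, under the noise limit, to 26.1), Gcdh, that of glutaryl-CoA, by 0.35 ± 0.08, and Etfa, a subunit of the electron acceptor of these dehydrogenases, by 0.25 ± 0.06. Etfa rose by 1.20 and 1.22 on its other probes, 1 more gene whose probes differ in size with sugar. On the high-fat diet Eci2, an enoyl-CoA isomerase, rose by 0.74 ± 0.12, Gcdh by 0.54 ± 0.08 and Acadsb by 0.38 ± 0.08, the last from a mean of 4.86, under the noise limit, to 16.2. With a floor of 16 this Acadsb call ended (0.20, adjusted p = 0.249). Under fat with water 2 of 19 rose and 3 fell (8.58% and 8.51% of all), with Decr1 (dienoyl-CoA reductase) at 0.47 ± 0.11, Pccb (propionyl-CoA carboxylase) at -0.48 ± 0.09 and Acad10 at -0.45 ± 0.10. The other Pccb probe gave -0.09, and the other Acad10 probes -0.03 and -0.48. Under fat with sugar 0 rose and 2 fell (4.17% and 3.42% of all), Acadsb (-0.28 ± 0.08) and Ivd, the isovaleryl-CoA dehydrogenase (-0.37 ± 0.10, with -0.15 and no call on its other probe). These calls were lost in 6 of 24 and 7 of 24 fits with 1 sample left out (Acadsb without high-sugar replicate 2 or 6 or high-fat high-sugar replicate 1, 2, 3 or 6, and Ivd without high-sugar replicate 2, 5 or 6 or high-fat high-sugar replicate 1, 4, 5 or 6; adjusted p up to 0.0863 and 0.0899). Without both samples numbered 4 Ivd gave -0.36 (adjusted p = 0.0668), and 1 of the 19 fell.

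PPAR alpha targets outside the pathway had 6 of 13 measured members called higher and 0 called lower under fat with water, with a median of 0.51, beside 8.58% and 8.51% of all genes. The hormone gene Fgf21 rose by 2.05 ± 0.21, the lipid droplet gene Plin2 by 1.00 ± 0.12 and the thioesterase gene Acot2 by 1.44 ± 0.20 on its leading probe, with -0.07 and -0.0039 on 2 others. In the same comparison Cpt1a, Crat, Acadm and Hadha rose. With sugar on the high-fat diet 3 of 13 fell and 0 rose (13.8% and 16.4% of all), namely Fgf21 (-0.77 ± 0.21), Acot2 (-1.02 ± 0.20, with -0.04 and -0.06 on its other probes) and the fatty acid hydroxylase gene Cyp4a31 (-0.67 ± 0.20), of a family of near-identical genes. On the normal diet sugar raised 2 and lowered 0 (14.7% and 13.9% of all), Fgf21 (0.77 ± 0.21) and the peroxisomal thiolase gene Acaa1a (0.26 ± 0.07). With the high-fat diet and sugar 2 rose, Plin2 (0.53 ± 0.12) and the lipid droplet gene Cidec (0.82 ± 0.22, lost without high-sugar replicate 3 or high-fat high-sugar replicate 1 or 6, adjusted p up to 0.077), and 0 fell (4.17% and 3.42% of all).

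Among regulators of the pathway, Acacb and Ppargc1a fell with sugar on both diets, and Lpin1 and Ppargc1b fell with fat under both drinks. Of 17 measured, 2 rose and 3 fell with sugar on the normal diet, a share near the 14.7% and 13.9% of all genes, and 2 rose and 5 fell on the high-fat diet (16.4% and 13.8% of all). Ppargc1a, a coactivator of oxidation genes, fell by -0.95 ± 0.15 and -0.83 ± 0.15, from means of 105 to 37.0 and of 111 to 48.0. Acacb, whose product malonyl-CoA inhibits CPT1A, fell by -1.45 ± 0.14 and -1.75 ± 0.14, and Mlycd, which breaks malonyl-CoA down, rose on the high-fat diet by 0.94 ± 0.14. Esrra, an estrogen-related receptor, fell on the normal diet by -0.48 ± 0.07 and by -0.80 on its other probe. With the high-fat diet Lpin1, a phosphatidate phosphatase that also acts as coactivator, fell by -2.06 ± 0.34 with water and -2.43 ± 0.34 with sugar, and Ppargc1b by -0.87 ± 0.16 with either drink. Sirt3, a mitochondrial deacetylase, fell by -0.41 ± 0.08 with water and Rxra by -0.42 ± 0.09 with sugar. In all, 3 of 17 rose and 3 fell with fat and water (8.58% and 8.51% of all), and 0 rose and 4 fell with fat and sugar (4.17% and 3.42% of all). Without both samples numbered 4 the counts were 1 and 4 for sugar on the high-fat diet, 2 and 4 for fat with water and 0 and 3 for fat with sugar.

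The smaller lists around the pathway hold 2 to 9 measured genes each, and are to be read beside the shares over all genes just given. Of 6 other genes of the carnitine shuttle and transport, Bbox1, the last enzyme of carnitine synthesis, rose with sugar on the normal (0.56 ± 0.07) and on the high-fat diet (0.41 ± 0.07), and Cpt1b, the muscle form of Cpt1, rose with the high-fat diet and water (0.46 ± 0.15 on its leading probe, 0.36 without a call on another). The Cpt1b call was lost without control replicate 1, 3 or 4 or high-fat replicate 1 or 6 (0.35 to 0.45, adjusted p up to 0.096), and held without both samples that carry muscle genes. Of 9 genes of acyl-CoA activation 2 rose with sugar on each diet, Acsm3 (0.38 and 0.37, each ± 0.08, with 0.08 to 0.95 and -0.13 to 0.96 on 3 other probes) and Acsm5 (0.30 and 0.40, each ± 0.08), both ligases of medium chains, and Acsl6 fell on the normal diet (-0.26 ± 0.07, from 10.9 to a level under the noise limit; -0.04 with adjusted p = 0.361 under a floor of 16). In the fat comparisons 2 of 9 fell with each drink, Acsl3 (-0.47 and -0.45, each ± 0.10) and Acsm5 (-0.38 and -0.27, each ± 0.08), the last of which was lost in 18 of 24 fits with 1 sample left out (adjusted p up to 0.121) and without both samples numbered 4 (-0.24, adjusted p = 0.136). The other Acsm5 probe gave -0.12 and -0.22 in the fat comparisons, without a call. Of 2 measured genes of ketone body synthesis, Bdh1 rose with sugar on the normal diet (0.35 ± 0.10, with -0.02 on its other probe and 0.17, adjusted p = 0.269, as their mean), and the transporter gene Slc16a6 under fat with water (0.29 ± 0.08, adjusted p = 0.0515 with a floor of 16). That other Bdh1 probe fell with sugar on the high-fat diet (-0.49 ± 0.14) and rose under fat with water (0.46 ± 0.14), where the leading probe was not called. Of 7 other genes around pyruvate dehydrogenase 0 rose in any of the 4 comparisons. Those that fell were Pdpr with sugar on the normal diet (-0.31 ± 0.10), the kinase Pdk2 with sugar on the high-fat diet (-0.36 ± 0.09), and the kinase Pdk1 (-0.53 ± 0.12) and the phosphatase Pdp2 (-0.45 ± 0.12) under fat with water, while Pdk4 gave 0.33 ± 0.29 there. The other Pdp2 probes gave 0.003, -0.80 and -0.78 under fat with water, the first without a call. The latter probes also fell under fat with sugar (-0.57 and -0.42), and the last of them with sugar on the normal diet (-0.29). All these values come from the limma fit, with adjusted p from 9.99e-10 (Acacb) to 0.0498 (Acsm5 with fat and sugar) for the genes called.

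**Figure D5:**
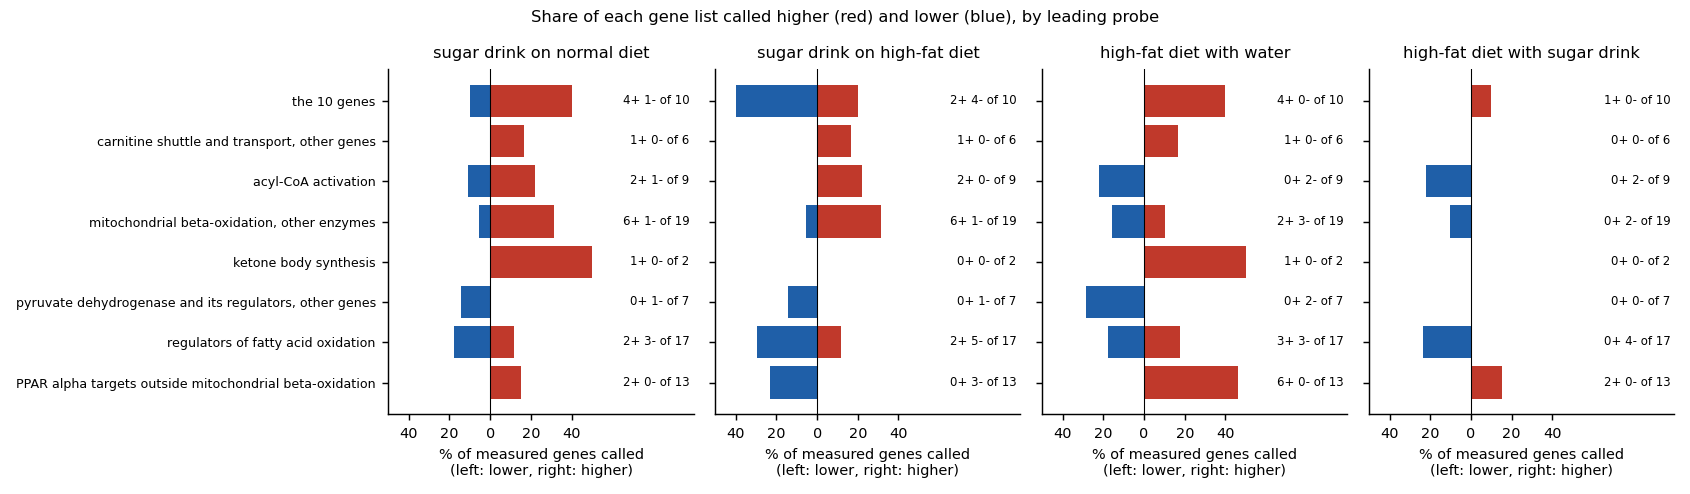
Share of the measured genes of each list called higher (red, right) and lower (blue, left) in 4 comparisons, with the counts at the right of each panel. The list of PPAR alpha targets has 6 of 13 genes higher with the high-fat diet and water and 3 of 13 lower with sugar on the high-fat diet.

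Markers of other cells moved in some of these comparisons. Under fat with water 7 of 10 measured Kupffer cell and macrophage genes rose and 0 fell (8.58% and 8.51% of all genes), with summed intensities of 4788 to 7485 beside 4153 to 4538 in controls. Of these Kupffer genes 2 rose and 1 fell with sugar on the normal diet (14.7% and 13.9% of all). On the high-fat diet 1 rose and 2 fell (16.4% and 13.8%), and with fat and sugar 2 and 0 (4.17% and 3.42%). With sugar on the high-fat diet 4 of 10 sinusoidal endothelial genes fell and 0 rose (13.8% and 16.4% of all, sums of 5480 to 6935 beside 6358 to 7591). With sugar on the normal diet 3 endothelial genes rose and 2 fell. With fat 2 rose and 0 fell with water, and 0 rose and 1 fell with sugar. Of 2 measured adipocyte genes Lpl rose in the high-fat high-sugar group (sums of 635 to 2359 beside 580 to 917 in the high-fat group), while Adipoq, Retn and Plin1 did not pass the filter. Lpl rose by 0.94 with sugar on the high-fat diet and 1.16 with fat and sugar, and by 0.73 and 0.99 without both samples numbered 4 (adjusted p = 0.0045 and 0.000974), where it also rose with fat and water (0.58, adjusted p = 0.0289). Of 9 measured stellate cell genes 2 rose and 0 fell with sugar on the normal diet (14.7% and 13.9% of all) and 2 rose and 1 fell on the high-fat diet (16.4% and 13.8% of all), and 4 rose and 0 fell with both treatments (18.9% and 16.3% of all). Of 3 measured exocrine pancreas genes 2 rose and 0 fell with sugar on the normal diet (14.7% and 13.9% of all). On the high-fat diet 1 rose and 0 fell (16.4% and 13.8%). Under fat 0 rose and 1 fell with water (8.58% and 8.51%) and likewise with sugar (4.17% and 3.42%). Amy2a5 rose with sugar on both diets (0.74 and 0.83). Cela1 rose with sugar on the normal diet (0.46) and fell under fat with water (-0.47) and with sugar (-0.69). Without both samples numbered 4 the Kupffer count for fat with water was 6. The endothelial count for sugar on the high-fat diet was then 3 and the stellate count for both treatments 3. Of the Kupffer genes 1 then rose and 1 fell with sugar on the high-fat diet, and 1 rose and 0 fell with fat and sugar. The part of such shifts in the values of the 10 genes was not tested. Of the 9 hepatocyte genes 4 rose and 2 fell with sugar on the normal diet (14.7% and 13.9% of all genes), and 2 rose and 2 fell on the high-fat diet (16.4% and 13.8% of all). With fat and water 2 rose and 1 fell (8.58% and 8.51% of all). With fat and sugar 0 rose and 2 fell (4.17% and 3.42% of all), or 1 fell without both samples numbered 4. The median hepatocyte sum was 69382 in the high-fat high-sugar group beside 78509 in the high-sugar group.

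The genes most like each member over the 24 samples, by Pearson's r of log2 values with 3 named for each by rule, are given as a description, since all points share the 4 groups and the arrays. For Cpt1a they were Ptdss2 (0.90), Add1 (0.87) and Apoc2 (0.86), and for Crat Oplah (0.90), Acacb (0.88) and Serinc2 (0.87). For Acadm they were Hsd3b7 (0.91), Ugt3a1 (0.87) and Sf3b4 (0.86), and for Hadhb Map7 (0.92), Itih2 (0.92) and Chchd10 (0.91). Cpt2 was most like another of the 10 genes, Acadm (0.83), followed by Hsd17b4 (0.78) and Hsd3b7 (0.77). For Acadl they were Cd244a (0.79), Cyp4a31 (0.78) and Igfbp2 (0.77), for Hadha Gigyf1 (0.79), Arsk (0.77) and Dock8 (0.76), and for Pdk4 Lrrc14b (0.79), Slc25a30 (0.79) and Acer3 (0.77). The likeness of Pdk4 and Lrrc14b was 0.53 by Spearman's rho and 0.58 without the 2 samples farthest from the median of Pdk4. Hadh, near the noise limit, had Gm12657 (0.75), Cbx3 (0.73) and Fbxo3 (0.73), and Acadvl, the flattest, had the lowest values, with Mon1a (0.65), Zfp612 (0.65) and Ecm1 (0.63).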

How the data were processed

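RNA of 24 liver samples was hybridised to Illumina bead arrays, per the labels. The deposited values are normalised probe intensities on a linear scale, background-subtracted and partly below 0, and the submitters' processing notes name GenomeStudio 2011.1. A table of 48 columns that could not be matched to samples by name was not used.

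To each deposited intensity 32 was added before taking log2. Probes above the 0.95 quantile of the array's noise on at least 6 of 24 arrays were kept. The 4 groups were fitted together with limma 3.58.1 in R 4.3.3 (eBayes with intensity trend), and p-values were adjusted by Benjamini-Hochberg over all kept probes for each comparison, with a two-sided threshold of 0.05. The fit was tested on simulated data of 20216 probes with independent normal noise, for sugar on the normal diet. It recovered 90 of 100 changes of 0.5 and 100 of 100 changes of 1, with 9 false calls. Smaller changes, deviating arrays and probes that disagree were not simulated, so the test does not cover them. The number of arrays limits the precision.

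The members and lists were chosen with earlier results of these data known. All member probes are named, with the 3 called genes of smallest adjusted p per list and comparison, the called marker genes or their counts, and the 3 genes most like each member. Alternatives changed the offset, a floor of 16, the probe filter, the probes per gene, the adjustment, the normalisation, the variance trend, array weights, the replicate block, the samples in the fit and each sample in turn. Leaving out the samples with muscle genes and the test of probe gaps were added after seeing the data. A sign change of a value called in neither setting was not counted as a change.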

Additional observations from a re-analysis of the deposited data

Results flagged for a closer look

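In the control group, Cpt1a read 25.2 in replicate 4, far from the next highest sample at 7.99. In the high-fat high-sugar group the second Cpt2 probe read 2325 in replicate 5, far from the next at 1574. These were 2 far samples among 64 groups of values screened, and chance flags about 1 in 20 such groups. The effect of sugar was called as differing between the diets for Hadha (-0.71 on the log2 scale, limma adjusted p = 0.0388) and for the second Crat probe (-0.76, limma adjusted p = 0.0425). These calls were lost in 12 and 15 of 24 fits with 1 sample left out, and without both samples numbered 4 (limma adjusted p = 0.0806 and 0.078). The leading Crat probe gave -0.15 (limma adjusted p = 0.756). The second Hadh probe, left out as too dim, averaged 11.0 in the high-sugar group, above the noise limit in 5 of 6 samples there and in 0 of 6 controls.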

How the results depend on the processing

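Leaving out 1 sample at a time gave 3 to 5 member genes called for sugar on the normal diet, 5 to 7 for sugar on the high-fat diet, 2 to 4 for the high-fat diet with water, 0 to 1 for the high-fat diet with sugar, 0 to 3 for the interaction and 3 to 4 for both treatments. Sugar on the normal diet gave 3 with only the groups of the contrast in the fit, where fewer samples set the spread. For the high-fat diet with sugar the count was 0 with a floor of 16, 2 with array weights and 0 without the 2 samples that carry muscle genes (chosen after seeing the data). For the interaction it was 0 with the floor, 2 with array weights, 2 with the replicate block and 0 without those samples. The cause was not tested. Averaged over its probes, Acadl turned from a fall to 0.017 with sugar on the high-fat diet (adjusted p = 0.867) and to 0.24 with both treatments (adjusted p = 0.00536), which follows from its probes differing. Averaging also ended the Crat call for sugar on the normal diet (-0.28, adjusted p = 0.0524) and added calls for Acadl with sugar on the normal diet (0.32) and with fat and water (0.22) and for Cpt2 with sugar on the high-fat diet (0.44). Over the other named genes, 2506 of 2579 alternatives kept the call, 73 lost it and 0 reversed it.

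Samples that share a replicate number were not paired in the main fit. Of 36 correlations of their deviations 10 exceeded 0.1 (range -0.26 to 0.30). In 5 of the 36 pairings between 2 groups a sample correlated best with its own number. Between the high-sugar and high-fat high-sugar groups 4 of 6 exceeded 0.1, and 3 of 6 samples correlated best with their own number. Between the control and high-fat high-sugar groups both counts were 0. With the replicate block the counts were 5, 6, 4, 1, 2 and 4 in the order above: the Acadl interaction passed (adjusted p = 0.0466), while the second Crat probe's interaction (adjusted p = 0.0609) and the Acsm5 fall with fat and sugar (adjusted p = 0.0511) did not. Background correction from the unmatched table was not run. Signal over background limits Cpt1a and Hadh.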
